A study of Mus musculus with 4 samples.

Results

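Oxidative phosphorylation genes encoded in the nucleus were examined in lung mesenchymal cells with and without a conditional deletion of Dnmt1, the DNA methyltransferase that copies methylation to new DNA strands. Subunit genes were taken from the deposited count table by name, namely Ndufa, Ndufb, Ndufc, Ndufs or Ndufv followed by a digit, Cox4 to Cox8, Uqcr and Atp5. Cox4i2, Ndufa4l2 and names with -ps were left out. The choice gave 81 of 31247 genes in the table. By the GENCODE annotation 77 are protein coding and 4 (Cox6c2, Ndufa11b, Ndufb4c and Ndufs6b) are processed pseudogenes. The coding genes comprise 36 of complex I, 8 of complex III, 16 of complex IV and 17 of complex V. The filter on low counts left 76 of the 81 genes to test, without the 4 pseudogenes and Cox8b. Ndufab1, Cyc1 and the 4 genes of complex II fall outside the name rule.

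Lungs of mice at postnatal day 7 gave sorted cells positive for Pdgfrb-GFP, labelled as myofibroblasts, whose RNA was sequenced in 2 conditional knockout (CKO) and 2 wild-type (WT) libraries of 300000 to 350000 cells each. The CKO genotype combines Dnmt1-D/D with the transgenes Tet-O-Cre and Tbx4-rtTA and with PDGFRb-GFP, and the WT genotype carries PDGFRb-GFP with no rtTA or Cre named. All 4 libraries thus share the GFP reporter. Cre is driven through Tbx4-rtTA, so that deletion depends on doxycycline and on Tbx4 activity in the lung mesenchyme, and the sorted gate can hold cells in which the gene was not deleted. The sources used here give neither the doxycycline schedule nor the structure of the Dnmt1 allele. Litters are not named either, and p-values therefore reflect the spread among these 4 libraries alone. Libraries are named by genotype and a letter that carries no pairing.

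The respiratory chain passes electrons from NADH through complex I, ubiquinone, complex III and cytochrome c to oxygen at complex IV, and the proton gradient so made drives ATP synthase, also called complex V. A few catalytic subunits are encoded by mitochondrial DNA, and the nucleus encodes the others, most of them small proteins from short and broadly expressed genes. Several subunits of complex IV have second isoforms used in muscle, testis or other tissues. Nuclear respiratory factor NRF1, ETS factors such as GABPA, and YY1 are known to bind promoters of many of these genes.

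Depth was 26420648 and 23581186 counted reads in CKO A and CKO B, against 23071657 in WT A and 25709717 in WT B. CKO A alone held reads of Y-linked genes (Ddx3y had 2494 reads in CKO A and 0 in each other library). Xist stood at 164 and 1081 CPM in CKO A and CKO B, against 849 and 671 CPM in WT A and WT B. CKO A thus held reads of both Y-linked genes and Xist. Dnmt1 stood at 78.1 and 29.5 CPM (reads scaled to a common library size) in CKO A and CKO B, against 144 and 115 CPM in WT A and WT B, and the fit did not call it (log2 change -1.27 ± 0.57 SE, edgeR adjusted p = 0.31). CKO A therefore had the higher Dnmt1 level of the CKO libraries. Pdgfrb, whose reporter was sorted on, stood at 374 and 317 CPM in CKO and 507 and 477 CPM in WT (edgeR adjusted p = 0.0546). WT B had reads on 27643 genes, against 21883 to 22532 in the others. The 9 lung mesenchyme markers summed to 75453 and 87540 CPM in CKO A and CKO B and to 65132 and 65639 CPM in WT A and WT B, with no marker at 0. Elastin and collagen genes made up most of that sum, and the markers did not run one way. Pdgfra stood at 406 and 324 CPM in CKO and 596 and 511 CPM in WT, and Tbx4 at 446 and 327 CPM in CKO and 632 and 528 CPM in WT. None of the 9 was called by edgeR or limma-voom (1 higher and 3 lower at an unadjusted p under 0.05 in edgeR), while DESeq2 called 2 higher (Col1a1 and Col1a2) and 3 lower (Pdgfra, Pdgfrb and Tbx4). Chi-square over its degrees of freedom was 32.4 between the CKO libraries and 18.1 between the WT libraries. Libraries of the same genotype thus differed by more than counting error. Libraries of different genotypes were not compared in this way.

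Most subunit genes stood slightly higher in CKO cells than in WT cells, and the broadly expressed ones did so by less than the test could call. Of 76 tested genes 71 had a positive log2 change and 5 a negative one, with a median of 0.27 (1.20-fold, quartiles 0.16 to 0.33), against a median of -0.0087 over all 15210 tested genes. Cox7b2 and Cox6a2, isoforms of complex IV, rose in CKO (edgeR's quasi-likelihood test, Benjamini-Hochberg adjusted p under 0.05). Each had 0 and 2 reads in WT and passed the filter on low counts only through the CKO libraries. Their calls therefore say nothing of the other subunit genes. Of all tested genes 4.85% were called higher, against 2 of 76 subunit genes. None of the subunit genes was called lower (0 of 76, with 2.75% of all tested genes called lower), by edgeR, DESeq2 or limma-voom. At an unadjusted p under 0.05 in edgeR, 21 of 76 were higher (with 13.1% of all tested genes higher) and 0 were lower (with 12.1% of all tested genes lower). The 72 broadly expressed genes, those left after Cox6a2, Cox6b2, Cox7a1 and Cox7b2 are set aside, had 69 positive and 3 negative changes between -0.50 and 0.51, and 0 were called by edgeR (19 of 72 higher, against 13.1% of all tested genes, and 0 lower, against 12.1%, at an unadjusted p under 0.05). Fewer cells of a type and less RNA per cell cannot be told apart in such bulk samples.

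**Figure D1:**
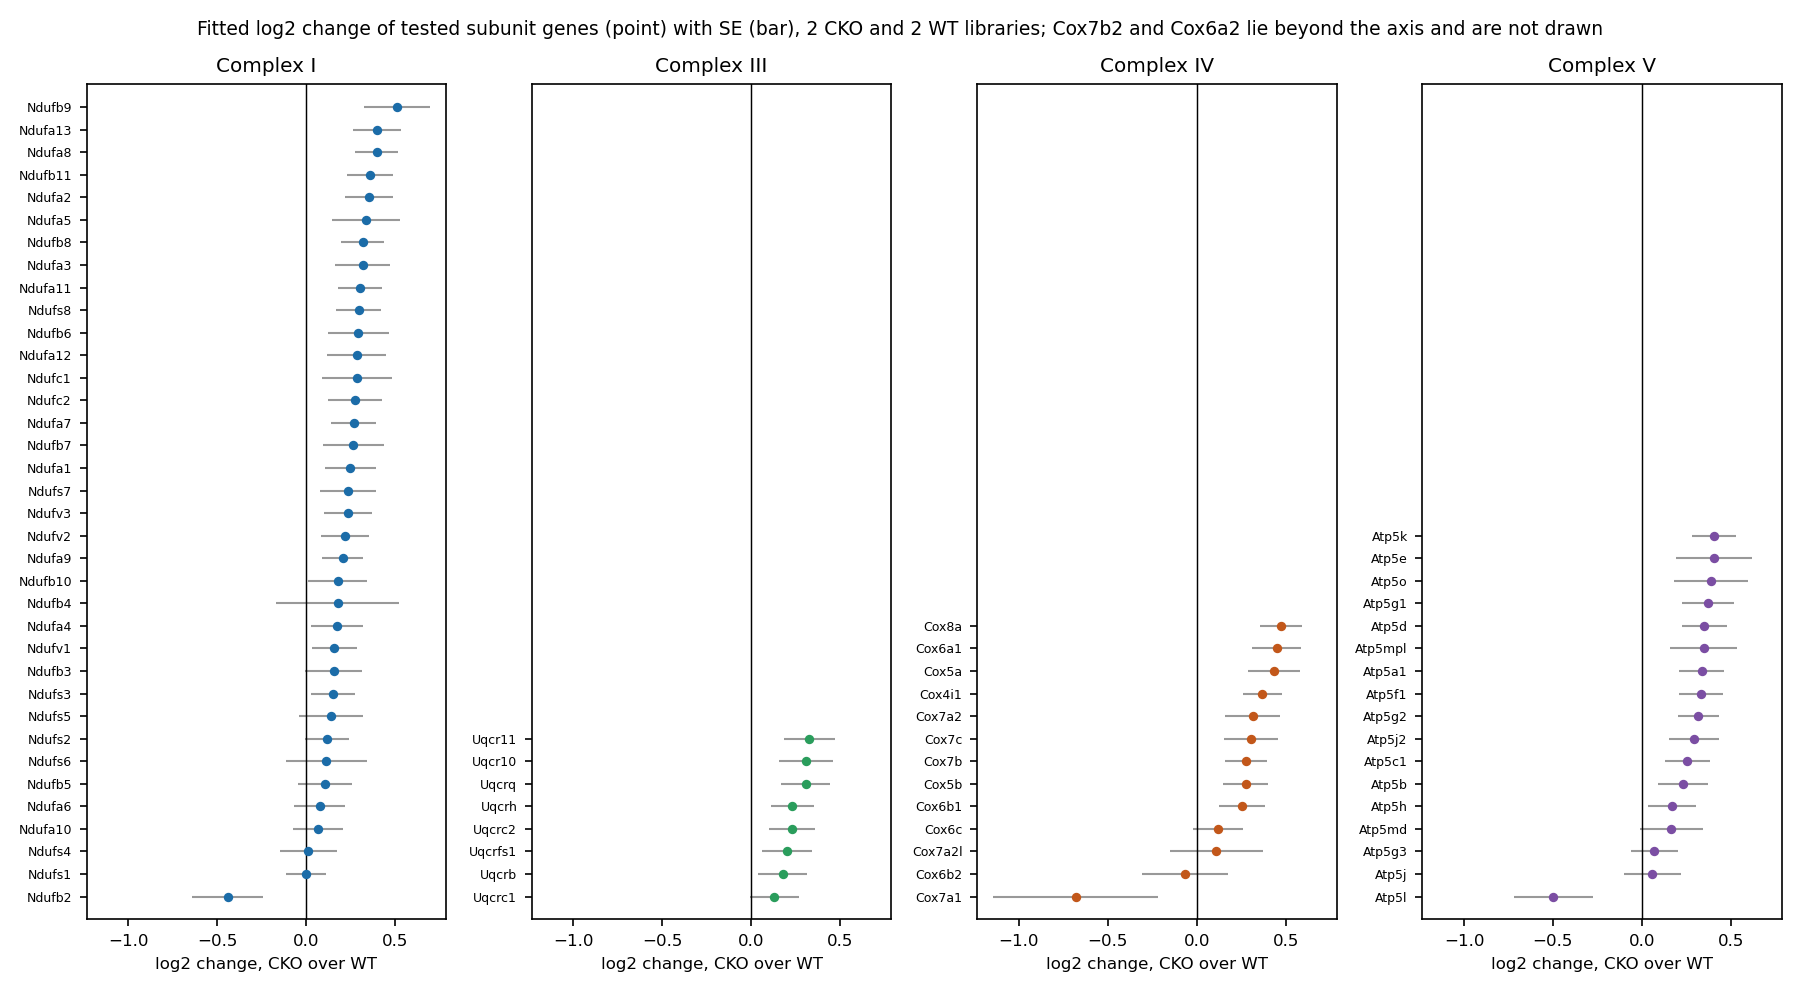
Fitted log2 change of CKO over WT (x axis) for each tested subunit gene (y axis) by complex, with points for the estimate and bars for its SE (2 CKO and 2 WT libraries). Nearly all points lie right of 0, and Cox7a1, Atp5l and Ndufb2 lie farthest to the left, while Cox7b2 and Cox6a2 lie beyond the axis.

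The groups did not overlap for 49 tested genes. Both CKO libraries lay above both WT libraries for 46 of 76 subunit genes (60.5%, against 27.7% of all tested genes), of which 19 belong to complex I, 5 to complex III, 11 to complex IV and 11 to complex V. Both lay below for 3 genes, Ndufb2, Cox7a1 and Atp5l, against 29.3% of all tested genes. The groups overlapped for the other 27. The authors' deposited table calls Cox7b2, Cox6a2 and Cox8a higher at its adjusted p under 0.05 and 0 subunit genes lower, while 950 genes of that table (3.04%) are called higher.

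The size of the difference depended on which CKO library was read. Relative to the WT mean, the median log2 level of the 72 broadly expressed genes was 0.40 in CKO A and 0.076 in CKO B, against -0.024 in WT A and 0.024 in WT B. Over all tested genes the same medians were -0.0051 in CKO A and -0.035 in CKO B, against -0.0017 in WT A and 0.0017 in WT B. CKO A was above CKO B for 71 of the 72 genes (98.6%, against 7607 of all 15210 tested genes) and was the highest library for 70 (97.2%, against 3960 of 15210). CKO B was above both WT libraries for 44 genes (61.1%, against 37.6%). It lay between them for 15 of the 72 (against 2999 of all 15210 tested genes) and below both for 13 (against 6485 of 15210). Atp5g2, Cox4i1 and Ndufa9 are among the genes at which CKO B came close to CKO A, at 46.6, 149 and 32.4 CPM in CKO B and 47.8, 152 and 33.9 CPM in CKO A. Atp5e and Ndufs6 show the other pattern, with 55.2 and 32.3 CPM in CKO A but 34.9 and 20.0 CPM in CKO B, against 33.8 and 22.6 CPM in WT A and 34.3 and 25.8 CPM in WT B. Of these genes all but Atp5g2 were chosen after their values were seen.

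**Figure D2:**
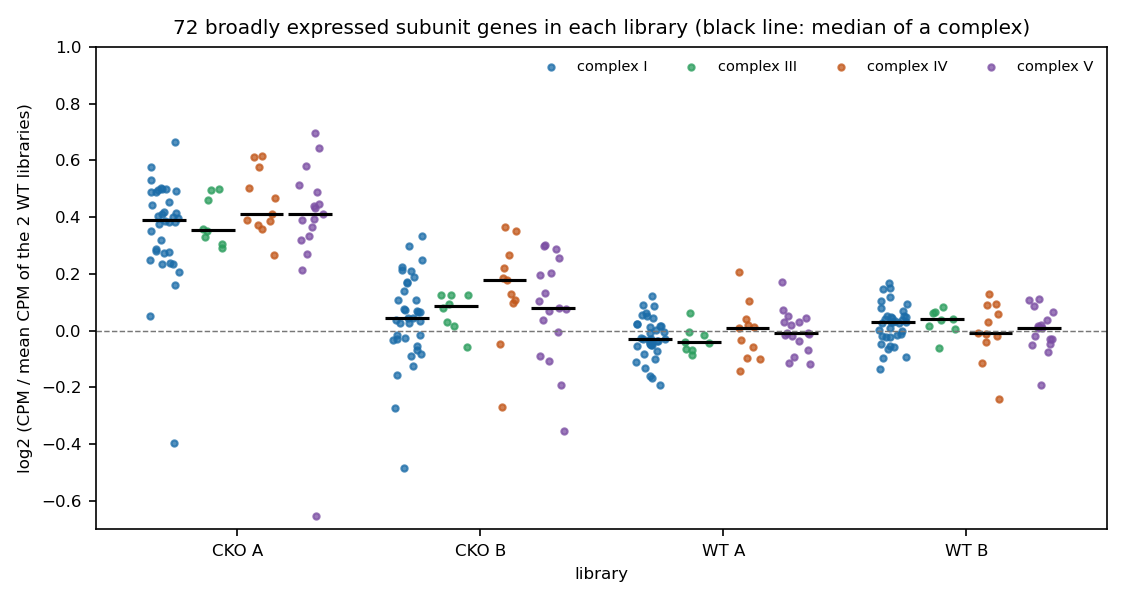
Log2 ratio of each library's CPM to the mean CPM of the 2 WT libraries (y axis) for the 72 broadly expressed subunit genes, 1 point a gene, by library (x axis) and complex (colour), with black lines at medians. CKO A stands apart from the other libraries in all 4 complexes (median over the 72 genes 0.40), and CKO B (0.076) lies nearer to the WT libraries.

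Leaving out a CKO library moved both the count and the median. Without CKO A, only Cox7b2 was called among the subunit genes (1 of 76, with 7.88% of all genes in that fit called higher), 56 changes were positive, 20 were negative, and the median was 0.10. Without CKO B, 15 of 76 were called higher (with 3.8% of all genes in that fit called higher) and the median was 0.41. Those 15 are Ndufa2, Ndufa8, Ndufa13, Ndufb7 and Ndufb11 of complex I, Uqcr10, Uqcr11 and Uqcrq of complex III, Cox5a, Cox6a1, Cox7a2 and Cox8a of complex IV, and Atp5e, Atp5k and Atp5mpl of complex V. With 1 CKO library left, that library is assumed to vary like the WT libraries. CKO A also had the deepest library. Its share of reads on the mitochondrial genes that were counted was the largest (2.63% and 2.21% in CKO A and CKO B, 2.09% and 2.06% in WT A and WT B). CKO A had the highest sum of 10 leukocyte markers as well. That sum was 77.6 and 50.7 CPM in CKO and 34.7 and 45.5 CPM in WT, with no marker at 0 in all libraries and 4 of 9 tested markers (Cd14, Cd74, Fcer1g and Laptm5) called higher by edgeR, DESeq2 and limma-voom, though Cd74 alone without WT A or without WT B. Of the 9 tested leukocyte markers, 7 had positive and 2 negative log2 changes (lowest -0.85). In the edgeR fit of all 4 libraries 4.85% of all tested genes were called higher. The 8 endothelial markers summed to 177 and 96.9 CPM in CKO A and CKO B, against 84.2 and 124 CPM in WT A and WT B, with no marker at 0 in all libraries and none called. The 9 epithelial markers summed to 148 and 78.7 CPM in CKO, against 60.2 and 184 CPM in WT, and the 6 erythroid markers to 14.0 and 7.42 CPM in CKO, against 22.8 and 30.2 CPM in WT. Of the epithelial markers 2 had positive and 7 negative changes, with none called. Of 5 tested erythroid markers 2, Hba-a1 and Hba-a2, were called lower by edgeR (median log2 change of the 5 -1.50) and 5 were lower at an unadjusted p under 0.05. DESeq2 called 3 lower and limma-voom 1, and edgeR did not call Hba-a1 without CKO B or WT B, nor Hba-a2 without CKO B, WT A or WT B. The part of depth, sex, residual Dnmt1 or these cells in the subunit result was not tested.

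Complex I, the NADH dehydrogenase, had 34 positive and 2 negative changes among its 36 tested genes, with a median of 0.23 (1.18-fold). None was called by edgeR, DESeq2 or limma-voom, and 8 of 36 were higher and 0 lower at an unadjusted p under 0.05 in edgeR (13.1% and 12.1% of all tested genes). The 7 core subunits, which carry the flavin and iron-sulfur clusters, had a median of 0.16 with a range of -0.00 to 0.29, and the 29 accessory subunits had a median of 0.26 with a range of -0.44 to 0.51. These and the other role groups were formed after values were seen. Ndufs1, the largest iron-sulfur subunit and the longest gene of the set, had a fitted change near 0. It stood at 47.4 and 44.0 CPM in CKO and 44.7 and 46.6 CPM in WT (log2 change -0.00 ± 0.11 SE, edgeR adjusted p = 0.999), and the groups overlapped. Ndufs8, an iron-sulfur subunit, had the largest core change, with 40.0 and 33.8 CPM in CKO and 29.4 and 30.7 CPM in WT (0.29 ± 0.13, edgeR adjusted p = 0.193).

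Accessory subunits of complex I surround the core and stabilise it. Ndufa8, which faces the intermembrane space, had the lowest p of the complex, at 45.7 and 40.0 CPM in CKO and 33.1 and 32.1 CPM in WT (0.40 ± 0.12 SE, edgeR adjusted p = 0.085). Ndufa13, also known as Grim19, followed with 82.2 and 67.6 CPM in CKO and 59.1 and 54.7 CPM in WT (0.40 ± 0.13, edgeR adjusted p = 0.11). Both CKO libraries lay above both WT libraries for either gene, and neither passed. Ndufb9 had the largest fitted change of the broadly expressed genes, at 16.7 and 13.2 CPM in CKO and 11.5 and 9.58 CPM in WT (0.51 ± 0.19, edgeR adjusted p = 0.135). Ndufa1, a small membrane subunit encoded on the X chromosome with the shortest annotated length of any tested subunit gene, stood at 36.3 and 29.0 CPM in CKO and 28.5 and 26.5 CPM in WT (0.25 ± 0.14, edgeR adjusted p = 0.32). Ndufa4, named for complex I and since assigned to complex IV, stood at 82.1 and 63.1 CPM in CKO and 61.3 and 67.5 CPM in WT, with overlapping groups.

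Ndufb2 ran the other way. It stood at 7.57 and 7.12 CPM in CKO and 8.74 and 11.2 CPM in WT (-0.44 ± 0.20 SE, edgeR adjusted p = 0.211), with both CKO libraries lower and no call. Ndufb4 was the lowest of the tested broadly expressed genes, at 1.98 and 1.73 CPM in CKO and 1.58 and 1.70 CPM in WT, and 40.2% of its transcript matched 2 other genes at 95% identity or more. Ndufb1-ps, left out by its name, stood at 14.3 and 11.7 CPM in CKO and 9.31 and 11.0 CPM in WT (0.36 ± 0.18 SE, edgeR adjusted p = 0.266). The 3 complex I pseudogenes had at most 5 reads in any library.

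Complex III, the cytochrome bc1 complex, had 8 positive changes of 8, with a median of 0.23 and a range of 0.13 to 0.32. None was called by edgeR, DESeq2 or limma-voom, and 0 of 8 were higher or lower at an unadjusted p under 0.05 in edgeR (13.1% and 12.1% of all tested genes). The small subunits Uqcr10, Uqcr11, Uqcrb, Uqcrh and Uqcrq had a median of 0.30, and Uqcrc1, Uqcrc2 and the Rieske iron-sulfur protein Uqcrfs1 one of 0.20. Uqcr11 stood at 50.9 and 39.4 CPM in CKO and 35.7 and 36.5 CPM in WT (0.32 ± 0.14 SE, edgeR adjusted p = 0.203). Uqcrq, also called the ubiquinone-binding protein, stood at 50.9 and 40.4 CPM in CKO and 38.6 and 35.4 CPM in WT (0.30 ± 0.14, edgeR adjusted p = 0.222). For both genes the groups did not overlap, and CKO A stood farther above WT than CKO B did. Uqcrh, the hinge protein beside cytochrome c1, had the highest level per length of the complex by the length column. It stood at 129 and 112 CPM in CKO and 97.9 and 107 CPM in WT (0.23 ± 0.12, edgeR adjusted p = 0.281).

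Complex IV, cytochrome c oxidase, was the complex with the called genes. Its 11 broadly expressed genes were all positive, with a median of 0.31 (1.24-fold) and a range of 0.11 to 0.48. Both CKO libraries lay above both WT libraries for 9 of 11, against 27.7% of all tested genes. At an unadjusted p under 0.05 in edgeR, 5 of the 11 were higher and 0 lower (13.1% and 12.1% of all tested genes). Cox8a, a small membrane subunit, came closest to the threshold. It stood at 128 and 110 CPM in CKO and 86.0 and 85.0 CPM in WT (0.48 ± 0.12 SE, edgeR adjusted p = 0.0505), and the groups did not overlap. Cox8a was called by DESeq2, in the authors' deposited table and with RLE scaling in edgeR. It was not called by limma-voom (adjusted p = 0.0649) or by edgeR with library size alone (adjusted p = 0.0582). Its log2 change was 0.39 without CKO A, 0.59 without CKO B, 0.50 without WT A and 0.47 without WT B. Cox4i1, the regulatory subunit that binds ATP, had nearly equal values in the CKO libraries, at 152 and 149 CPM in CKO and 112 and 121 CPM in WT (0.37 ± 0.11, edgeR adjusted p = 0.082). Cox6a1 stood at 168 and 132 CPM in CKO and 113 and 107 CPM in WT (0.45 ± 0.14, edgeR adjusted p = 0.088). Cox5a, a subunit on the matrix side, stood at 55.6 and 42.4 CPM in CKO and 36.8 and 35.8 CPM in WT (0.43 ± 0.15, edgeR adjusted p = 0.114). Cox7a2l, a factor of supercomplex assembly, varied within both genotypes, at 88.6 and 55.3 CPM in CKO and 76.9 and 56.5 CPM in WT.

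Among the isoforms of complex IV restricted to other tissues, Cox7b2 and Cox6a2 rose in CKO cells but stayed at low levels, while Cox7a1, Cox6b2 and Cox8b were not called or not tested. Cox7b2 (ENSMUSG00000049387, chromosome 5, 71442824 to 71548205 on GRCm38), known mainly from testis, had 24 and 63 reads in CKO A and CKO B and 0 and 2 reads in WT A and WT B, which is 0.914 and 2.72 CPM in CKO against 0 and 0.0754 CPM in WT. The ratio of the groups was 43.4 with a 95% interval of 11.6 to 364 that covers counting error only (log2 change 5.32 ± 0.99 SE, edgeR adjusted p = 0.021). Cox6a2 (ENSMUSG00000030785, chromosome 7, 128205435 to 128206387), known mainly from heart and skeletal muscle, had 23 and 20 reads in CKO and 0 and 2 reads in WT. Its ratio was 21.4 with a 95% interval of 5.58 to 183 (log2 change 4.27 ± 0.87, edgeR adjusted p = 0.027). Each CKO library held at least 20 reads of either gene and each WT library at most 2, and both fitted changes depend on the prior count. Both genes thus passed the filter on low counts only through the CKO libraries, where they are high. An isoform low in both genotypes, such as Cox8b, could not be called.

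Per merged exon length, both stayed minor beside their common partners. Cox7b2 made up 3.20% and 10.1% of the summed TPM of Cox7b2 and Cox7b in CKO A and CKO B, against 0% and 0.355% in WT A and WT B. Cox6a2 made up 0.534% and 0.668% of the sum of Cox6a2 and Cox6a1 in CKO, against 0% and 0.0728% in WT. Cox7b, the broadly expressed partner, stood at 61.9 and 54.1 CPM in CKO and 48.2 and 47.4 CPM in WT (0.28 ± 0.12 SE, edgeR adjusted p = 0.191). The calls were fragile to the number of libraries. Cox6a2 was not called when any 1 library was left out (edgeR adjusted p from 0.074 to 0.115), and Cox7b2 not without CKO B (0.077) or WT B (0.055).

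The other isoforms were not called. Cox7a1, also of heart and skeletal muscle, had 15 and 15 reads in CKO and 24 and 24 reads in WT (log2 change -0.68 ± 0.46 SE, edgeR adjusted p = 0.401). Cox6b2, known from testis, stood at 4.49 and 3.84 CPM in CKO and 4.57 and 4.15 CPM in WT (-0.06 ± 0.24, edgeR adjusted p = 0.902). Cox8b, of heart, muscle and brown fat, had 3 and 3 reads in CKO and 0 and 2 reads in WT and was not tested, and Cox6c2, the shortest row of the set, had 2 and 1 reads in CKO and 0 and 0 in WT. Cox8c was not analysed here.

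**Figure D3:**
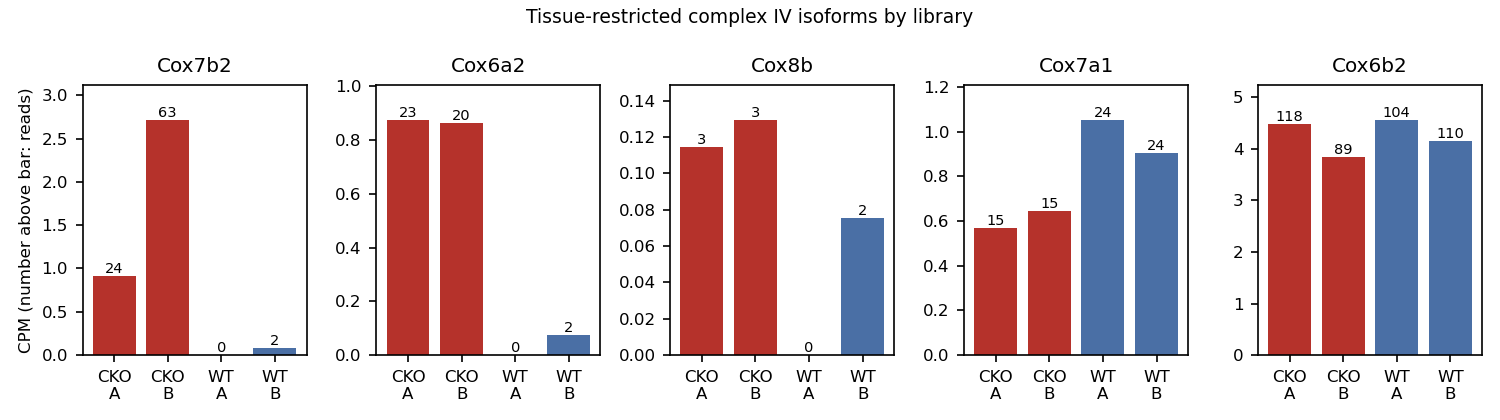
CPM (y axis, from 0, own scale in each panel) of the 5 tissue-restricted complex IV isoforms in each library (x axis), with read counts above the bars. Cox7b2 and Cox6a2 are high in both CKO libraries (24, 63 and 23, 20 reads), Cox7a1 has 15 and 15 reads in CKO and 24 and 24 in WT without a call, and Cox6b2 overlaps between groups.

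Markers of the tissues that use these isoforms differed from list to list. The 12 heart and skeletal muscle markers summed to 16.0 and 21.2 CPM in CKO and 13.0 and 14.0 CPM in WT, with 1 of 6 tested markers, Tnnt2, called higher by edgeR (1.54) and no marker at 0 in all libraries. Tnnt2 was not called by limma-voom (adjusted p = 0.0645) or by edgeR without CKO B, WT A or WT B (adjusted p from 0.0878 to 0.164). The 6 brown adipocyte markers summed to 7.77 and 15.6 CPM in CKO and 6.54 and 7.28 CPM in WT, and the defining marker Ucp1 had 0 and 0 reads in CKO and 0 and 2 in WT. The 6 germ cell markers, a list taken up with earlier results of these data known, summed to 89.1 and 173 CPM in CKO and 0.307 and 0.377 CPM in WT, and all 6 were called higher. Because of that choice their count is no independent result. In the edgeR fit of all libraries 4.85% of all tested genes were called higher. Bulk counts do not show which cells held the reads of these lists, and the sorted cells themselves may have held them. Whether cells of these tissues were present, or had a part in the isoform result, was not tested.

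Promoters of the subunit genes were read from RefSeq on GRCm38.p6, 250 bases before to 50 after each annotated start, for 65 of the 77 coding genes (70 promoters). Their median number of CG dinucleotides, the sites that DNMT1 methylates, was 19 (range 2 to 43), against 7 over all 32851 promoters of the table. The promoter of Cox7b2 and that of its partner Cox7b are shown because they belong to a called isoform and its uncalled counterpart, and those of Cox6a1 and Cox8a because these are the most abundant complex IV genes per length. CG dinucleotides are in capitals, and each sequence reads 5′ to 3′ on the strand of its gene. Cox7b2 lies at chr5:71548156-71548455 (minus strand, 10 CG), Cox7b at chrX:106015450-106015749 (plus strand, 5 CG), Cox6a1 at chr5:115348909-115349208 (minus strand, 32 CG) and Cox8a at chr19:7217567-7217866 (minus strand, 19 CG).
Cox7b2: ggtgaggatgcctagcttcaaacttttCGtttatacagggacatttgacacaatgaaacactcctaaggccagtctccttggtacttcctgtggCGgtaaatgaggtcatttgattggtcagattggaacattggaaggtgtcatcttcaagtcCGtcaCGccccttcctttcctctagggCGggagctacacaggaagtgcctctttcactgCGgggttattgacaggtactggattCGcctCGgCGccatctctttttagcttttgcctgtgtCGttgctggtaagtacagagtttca
Cox7b: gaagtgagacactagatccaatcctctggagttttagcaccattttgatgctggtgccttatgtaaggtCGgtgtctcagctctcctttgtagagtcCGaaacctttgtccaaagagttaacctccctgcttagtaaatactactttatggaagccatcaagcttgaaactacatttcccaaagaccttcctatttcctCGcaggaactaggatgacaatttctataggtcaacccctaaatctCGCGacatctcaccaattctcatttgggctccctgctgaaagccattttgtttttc
Cox6a1: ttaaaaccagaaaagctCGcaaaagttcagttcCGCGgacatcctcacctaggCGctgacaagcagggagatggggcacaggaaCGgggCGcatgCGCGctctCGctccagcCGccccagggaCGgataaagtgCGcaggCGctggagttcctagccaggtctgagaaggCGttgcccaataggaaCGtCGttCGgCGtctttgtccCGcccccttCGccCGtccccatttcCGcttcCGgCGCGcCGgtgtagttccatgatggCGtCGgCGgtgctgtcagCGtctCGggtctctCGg
Cox8a: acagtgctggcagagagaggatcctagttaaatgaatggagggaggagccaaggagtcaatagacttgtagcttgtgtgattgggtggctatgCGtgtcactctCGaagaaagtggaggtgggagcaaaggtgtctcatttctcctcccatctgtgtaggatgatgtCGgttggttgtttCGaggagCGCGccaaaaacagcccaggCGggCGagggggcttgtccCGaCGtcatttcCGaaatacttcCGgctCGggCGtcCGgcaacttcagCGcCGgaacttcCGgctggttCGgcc

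Cox7b2 has 10 CG sites in its window and Cox7b 5. Of the other isoforms, the uncalled Cox6b2 also has 10, the uncalled Cox7a1 7 and the untested Cox8b 2. The called Cox6a2 is among the coding genes without a promoter here. The CG number of 1 pair therefore does not separate called from uncalled genes. DNA methylation itself was not measured in the files used here. Motifs were searched on both strands. The NRF1 motif, GCGCA and GCGC on either side of any 1 base, was found in 16 of 70 promoters (22.9%, against 4.60% of all promoters), Cox6a1 among them. The ETS motif CCGGAAG was found in 15 (21.4%, against 8.86%), with Cox6a1 and Cox8a among them. The YY1 motif AANATGGCG was found in 10 (14.3%, against 2.38%). At least 1 of these motifs was found in 36 promoters, and the ETS and YY1 letters can overlap. Each motif holds a CG, and the subunit promoters are richer in CG than all promoters (median 19 against 7). Shares over promoters of like CG number were not computed. Both overlapping windows of Ndufa5 count among those with the NRF1 motif. A match is a description of these letters, not of binding. Neither the Cox7b2 nor the Cox7b window held any of them.

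Complex V, the ATP synthase, had 16 positive changes of 17, with a median of 0.32 (1.25-fold). None was called by edgeR, DESeq2 or limma-voom, and 6 of 17 were higher and 0 lower at an unadjusted p under 0.05 in edgeR (13.1% and 12.1% of all tested genes). The 5 subunits of the catalytic F1 head had a median of 0.34, the 3 genes for the c subunit of the membrane ring 0.32, the other 5 membrane subunits 0.29 and the 4 of the peripheral stalk 0.25. Atp5b, the catalytic beta subunit, had the highest level per length of the complex by the length column, at 734 and 602 CPM in CKO and 581 and 558 CPM in WT (0.23 ± 0.14 SE, edgeR adjusted p = 0.353). Atp5a1, the alpha subunit, stood at 629 and 565 CPM in CKO and 480 and 467 CPM in WT (0.34 ± 0.13, edgeR adjusted p = 0.144). The groups did not overlap for either.

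Atp5k, the e subunit that shapes synthase dimers, had the lowest p of the complex, at 47.2 and 40.3 CPM in CKO and 33.7 and 32.3 CPM in WT (0.41 ± 0.12 SE, edgeR adjusted p = 0.086). The 3 genes for the same mature c subunit had unequal fitted changes. Atp5g2 stood at 47.8 and 46.6 CPM in CKO and 39.8 and 35.9 CPM in WT (0.32 ± 0.11, edgeR adjusted p = 0.133), and Atp5g1 at 69.2 and 63.3 CPM in CKO and 57.7 and 44.9 CPM in WT (0.37 ± 0.14, edgeR adjusted p = 0.158). Atp5g3 overlapped between groups at 165 and 134 CPM in CKO and 148 and 138 CPM in WT (0.069 ± 0.13, edgeR adjusted p = 0.787). Whether these 3 differ from each other in their change was not tested.

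Atp5l, the g subunit, was the member of complex V with a negative change, at 4.49 and 5.52 CPM in CKO and 6.50 and 7.62 CPM in WT (-0.50 ± 0.22 SE, edgeR adjusted p = 0.208). Its reads are uncertain, since 86.8% of its transcript matched 11 other genes at 95% identity or more. Atp5o, which joins the stalk to the head, had 92.0% of its transcript matched in 3 other genes and 47.9% of its exon bases overlapped by other genes, and stood at 18.5 and 12.5 CPM in CKO and 12.2 and 11.5 CPM in WT. Of the 77 coding genes 36 had such a match over at least 100 bases and 29 an exon overlap with another gene, and the counting's use of strand is not given.

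Levels per length were computed as TPM, reads divided by the deposited length column and scaled to the same sum in each library. The summed TPM of all subunit genes was 12354 and 10564 in CKO A and CKO B, against 10102 and 9984 in WT A and WT B, a CKO over WT ratio of 1.14 ± 0.13 (SD, n = 2 each). Complex IV had the highest ratio, 1.20 ± 0.12, with sums of 3413 and 2967 TPM in CKO and 2680 and 2630 TPM in WT. Complex I summed to 4557 and 3834 TPM in CKO and 3761 and 3709 TPM in WT, complex III to 1459 and 1228 TPM in CKO and 1203 and 1251 TPM in WT, and complex V to 2925 and 2535 TPM in CKO and 2459 and 2394 TPM in WT. For complex III, CKO B lay between the WT libraries, and for the other complexes both CKO libraries lay above both WT libraries. Cox6a1 had the highest TPM of any subunit gene, at 872 and 719 TPM in CKO and 650 and 607 TPM in WT, followed by Cox8a at 747 and 675 TPM in CKO and 558 and 545 TPM in WT.

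The length column is not the length of a transcript. It equals the exons of every annotated transcript of a gene added together, plus 1 base per exon, for 98.5% of 31183 matched genes and for 77 of 77 coding subunit genes. It exceeds the merged exon length by a median of 1.79 times (1.00 to 5.18), so genes with a single transcript are favoured in the ranking by TPM. Ndufa1 ranked 4 by the length column and 10 by merged exons, Ndufa2 ranked 7 and 15, and Atp5a1 ranked 5 and 2, while Cox6a1 ranked 1 by both. With merged exon length the ratios of the summed TPM were 1.11 for complex I, 1.11 for complex III, 1.20 for complex IV and 1.13 for complex V. In RPKM, which scale reads by library size and length without a fixed sum over genes, they were 1.21, 1.18, 1.30 and 1.21.

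Subunit genes are short. The length column has a median of 3317 bases (362 to 16861) over the 77 coding genes, against 7850.5 over all tested genes, and merged exons a median of 1550 bases, against 4211. Over all tested genes, short ones stood slightly higher in CKO than long ones. From the shortest to the longest quartile of merged exon length the median log2 change of all tested genes was 0.094, 0.044, -0.028 and -0.10. The subunit genes of the same quartiles had medians of 0.28 (56 genes), 0.17 (13), 0.17 (6) and -0.00 (1), above the median of all genes in each. This trend was steeper in CKO A, with all-gene medians of 0.15, 0.088, -0.021 and -0.15 relative to WT, than in CKO B, with -0.0048, -0.0072, -0.043 and -0.07.

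**Figure D4:**
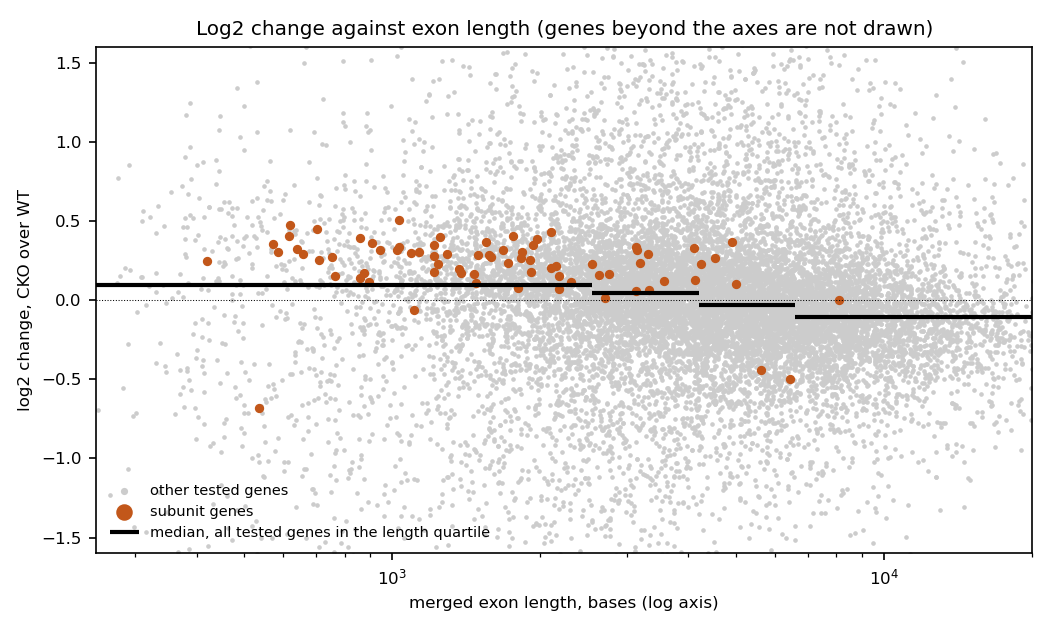
Log2 change of CKO over WT (y axis) against merged exon length in bases (x axis, log scale) for subunit genes (orange) and other tested genes (grey), with black bars at the median of all tested genes in each length quartile. The bars step down from 0.094 to -0.10 from short to long genes, and most subunit genes lie above the bar of their quartile.

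Within the set, longer genes had smaller changes. Across the 72 broadly expressed genes the log2 change and log2 merged exon length had r = -0.51 and rho = -0.43, a description across genes that share 4 libraries and are not independent, against r = -0.10 and rho = -0.14 over all tested genes. In complex I the core genes, with the smaller changes, had a median merged length of 2178 bases and the accessory genes one of 1251 bases. With the length trend removed, the median change of the subunit genes was 0.21 by the length column and 0.18 by merged exons, and Cox8a joined Cox7b2 and Cox6a2 among the called genes in each.

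Other lists of the pathway had medians between -0.11 and 0.24, apart from the isoforms that the name rule leaves out. Of 13 subunits encoded by mitochondrial DNA, 7 were tested, 7 had positive changes with a median of 0.24, and 1 rose, mt-Nd6 of complex I, at 963 and 885 CPM in CKO and 658 and 540 CPM in WT (0.63 ± 0.15 SE, edgeR adjusted p = 0.0416). The call was lost with limma-voom (adjusted p = 0.0503), and in edgeR with the merged exon length trend removed (0.0518), without WT A (0.0857) and without WT B (0.284), while DESeq2 called mt-Nd5 also. Counts were given for 9 of the 13 subunits, and mt-Co2 and mt-Nd3 had at most 3 reads in any library. The share of mitochondrial reads given above therefore leaves out part of the mitochondrial transcripts. In GENCODE M21 mt-Nd6 lies on the strand opposite to mt-Nd5 and shares 14 bases with it, and the counting's use of strand is not given. Of 12 subunits and carriers outside the name rule, 9 were tested and 1 rose, Cyct, the cytochrome c of testis, with 52 and 113 reads in CKO and 4 and 0 in WT (5.29 ± 0.94, edgeR adjusted p = 0.0256). Cyct was also called by DESeq2 and limma-voom, but by edgeR not without CKO B (adjusted p = 0.0518) or WT B (0.0533). Cyct too passed the filter on low counts only through the CKO libraries. The widespread Cycs and Cyc1 had changes of 0.40 and 0.37 and the 4 complex II genes Sdha, Sdhb, Sdhc and Sdhd had 0.11, 0.045, 0.15 and 0.12, none called. Of the isoforms that the name rule leaves out, Ndufa4l2, a hypoxia-induced paralog of Ndufa4, rose at 6.09 and 7.08 CPM in CKO and 2.81 and 3.43 CPM in WT (1.07 ± 0.24, edgeR adjusted p = 0.036), and Cox4i2 did not pass (0.24, edgeR adjusted p = 0.641). Ndufa4l2 was called by DESeq2 but not by limma-voom (adjusted p = 0.0506), nor by edgeR with the length trend removed (0.052, or 0.0617 by merged exons) or without CKO B, WT A or WT B (0.0739 to 0.182).

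Genes that build the complexes stood near the level of all genes. None was called by edgeR, DESeq2 or limma-voom among the tested assembly factors of complex I (17, median 0.042), complex II (4, -0.11), complex III (6, -0.11), complex IV (23, 0.020) and ATP synthase (6, 0.12). At an unadjusted p under 0.05 in edgeR, 1 of them was higher, Uqcc2 of complex III (0.56), and 0 were lower. Of 19 tested regulators of mitochondrial biogenesis, with a median of -0.066, 1 rose, Nfe2l2, the regulator of the oxidative stress response, at 165 and 157 CPM in CKO and 116 and 120 CPM in WT (0.45 ± 0.11 SE, edgeR adjusted p = 0.045). That is 1 of 19 beside 4.85% of all tested genes called higher. DESeq2 called Nfe2l2 and limma-voom did not (adjusted p = 0.0578), nor did edgeR with the length trend removed (0.062), with library size alone (0.0565) or without any 1 library (0.0521 to 0.229). Of 18 enzymes of the tricarboxylic acid cycle, with a median of 0.060, 1 rose, the malate dehydrogenase Mdh2, at 213 and 205 CPM in CKO and 150 and 150 CPM in WT (0.48 ± 0.11, edgeR adjusted p = 0.034). Mdh2 was called by DESeq2 and limma-voom too, but by edgeR not without WT A (adjusted p = 0.168) or WT B (0.192). For both genes the CKO libraries lay close together and above both WT libraries. Whether these lists differ from the subunit genes was not tested.

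**Figure D5:**
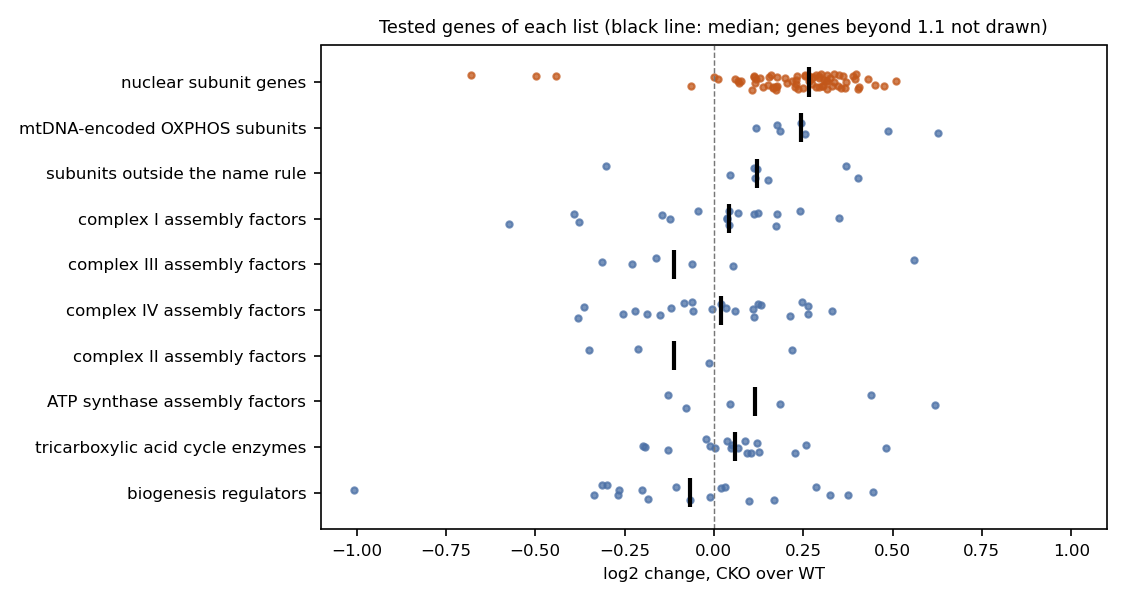
Log2 change of CKO over WT (x axis) of each tested gene (points) by list (y axis), with black bars at the medians. The nuclear subunit genes (median 0.27) and the subunits encoded by mitochondrial DNA (0.24) lie to the right of the assembly factors (-0.11 to 0.12), the biogenesis regulators (-0.066) and the tricarboxylic acid cycle enzymes (0.060).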

How the data were processed

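Pdgfrb-GFP positive lung cells of 2 CKO and 2 WT samples were profiled by RNA sequencing. The authors deposited raw counts per gene in 1 table, with a length in bases and their own log2 fold change, p-value and adjusted p-value, per the file headers. The submitters' processing notes name STAR, edgeR 3.28.1, Trimmomatic 0.36, cutadapt 2.5 and FastQC 0.11.8. The counting tool is not given in the sources used here. Columns named Control or Mutant were read as WT and CKO, and 4 further columns of per-sample values were not used. The same number, of unstated meaning, opens every count column name but that of WT A.

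The counts were tested in R 4.3.3 with edgeR 4.0.16 (filterByExpr with a minimum count of 10, TMM, robust glmQLFit and glmQLFTest) and adjusted by Benjamini-Hochberg over 15210 genes at 0.05. The biological coefficient of variation was 0.160, and SE is the log2 change over the square root of F. The procedure was tested on simulated data. Lengths and gene types came from GENCODE M21 on GRCm38. The subunit genes and lists were chosen with earlier results of these data known. Named genes are those called, the 2 with the lowest p and the highest TPM per complex, the extremes of change and length, and the tissue-restricted isoforms. Genes named beyond this, such as Cox4i1, Cox8a, Ndufb2, Ndufb9 and Atp5l, were chosen after their values were seen. Alternatives were DESeq2 1.42.0, limma-voom 3.58.1, RLE factors, library size alone, no filter, an adjusted p under 0.01, a minimum mean CPM of 1, leaving out each library and removing the length trend. Those with merged exons were chosen after seeing the data. Intervals cover counting error only.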

Additional observations from a re-analysis of the deposited data

How the results depend on the processing

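No paired analysis was possible because the count columns carry no replicate numbers. Of all genes, 738 were called higher and 419 lower. Without a filter on low counts these counts were 1543 and 916, at an adjusted p under 0.01 they were 199 and 42, and leaving out 1 library gave 248 to 1289 and 91 to 553. The 2 subunit genes called higher became 4 with DESeq2 (Cox6a1 and Cox8a added), 3 with RLE factors or with the length trend removed (Cox8a added), 1 at a mean CPM of at least 1 (Cox8a, as the isoforms fall below it), 12 without a filter, 0 at an adjusted p under 0.01, and 0 to 15 with 1 library left out. None was called lower under any of these settings. The median log2 change of the subunit genes was 0.18 to 0.31 under the settings that keep all libraries, and 0.10 (without CKO A) to 0.41 (without CKO B) with 1 library left out. DESeq2 put the median of all genes at -0.12. Ndufs1, at -0.00, turned to 0.018 with DESeq2, 0.012 with RLE factors, 0.0054 at a mean CPM of at least 1, 0.039 without a filter, 0.082 and 0.089 with the length trend removed by the length column and by merged exons, and ran from -0.028 to 0.064 with 1 library left out. Cox6b2, at -0.063, ran from -0.15 to 0.055 with 1 library left out. The cause of these changes was not tested. With 2 libraries per genotype and changes near 1.2-fold, a p that misses the threshold does not show that a gene was level.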
